A study of Homo sapiens with 4 samples.

Results

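The 9 genes described here belong to the MHC class I antigen presentation route: the heavy chains HLA-B, HLA-C, HLA-E and HLA-F, the light chain B2M, the peptide-loading genes TAP1, TAP2 and TAPBP, and the class I transactivator NLRC5. They were chosen by name, and all 9 were found among the 56271 gene rows of the count table.

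RNA-seq was performed on SKBR3, an established HER2-amplified breast cancer line. Cells had been transduced with the lentiviral vector FUW, and there were 2 libraries per group. The eGFP control group (eGFP Con) carried a vector with eGFP alone, and the VIRMA-overexpressing group (VIRMA FL) carried HA-tagged full-length VIRMA linked to eGFP. VIRMA is a subunit of the writer complex that places the m6A mark on RNA, and it is listed in the table under its older symbol KIAA1429. In both groups the eGFP-positive cells were sorted and expanded as a population, so neither group is a clone, and vector copies may differ between cells. The comparison asked which transcripts differed when VIRMA was raised in these cells. The sample labels mention a hypoxia chamber in the protocol of all 4 libraries, whereas the methods describe no hypoxia for the RNA-seq, so the oxygen level at harvest is uncertain in the same way for both groups.

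MHC class I molecules display short peptides from the proteins made inside a cell, and cytotoxic T cells and natural killer cells read them. Proteasomes cut proteins into peptides, the TAP1-TAP2 transporter carries the peptides into the endoplasmic reticulum, and tapasin (the product of TAPBP) holds an empty heavy chain with its B2M light chain next to the transporter until a peptide binds. Tumours with low levels of these genes can be poorly seen by cytotoxic T cells, and interferon is a well-known inducer of most of them.

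Library totals ran from 81446932 to 86375474 assigned counts. KIAA1429 had 710 and 682 counts in eGFP Con and 3437 and 3460 in VIRMA FL, so it was 2.29 higher on the log2 scale in VIRMA FL (SE 0.0685, edgeR adjusted p = 9.74e-26), as labelled. Mitochondrial transcripts took 11.35% and 11.6% of the control counts and 12.83% and 12.81% of the VIRMA-overexpressing counts. Of 12205 genes tested, 71% passed an adjusted p of 0.05, with replicates lying close together (biological coefficient of variation 3.93%). Some blood cell transcripts differed between the groups. For 16 leukocyte markers the summed level was 247 and 238 CPM (counts scaled to a common library size) in eGFP Con and 117 and 122 in VIRMA FL. Both VIRMA-overexpressing libraries were below both controls for 9 of the 16 (41.6% of all tested genes) and above both for CD3E, with 73, 60, 87 and 90 counts, and NKG7, with 6, 9, 26 and 15. The B cell marker MS4A1 was at 0 counts in all 4 libraries, and the pan-leukocyte gene PTPRC had 23, 13, 3 and 0 counts. CORO1A, with 14704 and 14263 counts in eGFP Con and 6818 and 6895 in VIRMA FL, made up most of that sum. For 6 erythroid markers the sum was 26.8 and 19.1 CPM in eGFP Con and 0.153 and 0.0242 CPM in VIRMA FL, and HBB had 2137, 1543, 0 and 0 counts. For 9 fibroblast and endothelial markers the sum was 21.5 and 19.8 CPM against 16.6 and 18.1 CPM, with 4 of the 9 lower in both VIRMA-overexpressing libraries. The summed level of 7 markers of the SKBR3 epithelium, ERBB2 among them, was 29357 and 28858 CPM in eGFP Con and 27478 and 27756 CPM in VIRMA FL. Single markers differed: 3 were higher, 3 lower and 1 did not pass, beside 35.1% higher and 35.9% lower among all tested genes. The log2 fold change was -0.51 for KRT8, -0.39 for EPCAM, 0.49 for KRT7 and 0.43 for GRB7. The part of these transcripts in the class I and pathway results was not tested.

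The class I genes were lower in VIRMA-overexpressing cells. Of the 9 genes, 7 passed the filter on low values, an RPKM (CPM per kilobase of exon) above 1 in at least 2 libraries, and all 7 were above it in all 4 libraries. All 7 were lower at an adjusted p of 0.05 and none was higher. Among all tested genes 35.9% were lower and 35.1% higher by the same rule. The median log2 fold change of the 7 genes was -0.35, against 0.01 over all tested genes. In each of the 7, both VIRMA-overexpressing libraries were below both controls, which was the case for 41.6% of tested genes, and the groups did not overlap in either direction for 84.3%. The differences were modest in size: no member passed a 2-fold change, which 2.93% of tested genes did downwards and 4.52% upwards. These are bulk libraries, so fewer transcripts per cell and fewer cells with the transcript cannot be told apart.

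The members covered a wide range of levels. Per exonic base of the file's gene models, HLA-E stood highest in the controls at 84.9 ± 0.186 RPKM (SD, n = 2), followed by B2M at 50.2 ± 1.49 and TAPBP at 34.6 ± 0.593. HLA-C at 9.27 ± 0.468 and TAP1 at 8.10 ± 0.118 formed a middle tier, above HLA-B at 3.47 ± 0.00398 and TAP2 at 3.35 ± 0.0803. NLRC5, at 0.132 ± 0.0264 RPKM, and HLA-F, at 0.0320 ± 0.00971 RPKM, lay far below the filter. In the VIRMA-overexpressing libraries HLA-B, at 2.30 and 2.70 RPKM, and TAP2, at 2.92 and 2.51 RPKM, overlapped, with the order of their means turned, and the order of the other means was the same. The other neighbours in this order did not overlap in either group. The place of B2M depends on the length used. Its gene model in the file spans 6089 exonic bases, whereas its canonical transcript has 943, and per base of the canonical transcripts B2M stood at 324 ± 9.64 RPKM and HLA-E at 99.2 ± 0.217 RPKM in the controls, so that their order turned. The canonical length was an alternative chosen after the data had been seen.

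**Figure D1:**
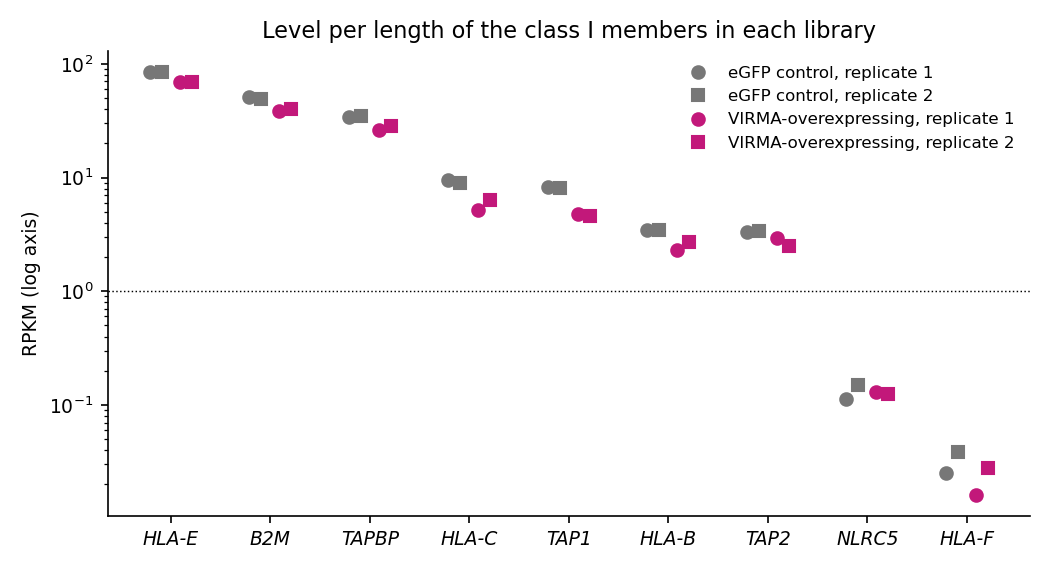
RPKM of the 9 class I genes in each of the 4 libraries, on a log axis; grey marks the eGFP controls, magenta the VIRMA-overexpressing libraries, circles replicate 1 and squares replicate 2, and the dotted line is the filter of 1 RPKM. From HLA-E to TAP2 both magenta points lie under both grey points, while for NLRC5 and HLA-F, under the line, they interleave.

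The heavy chains form the groove that holds the peptide. HLA-B and HLA-C are classical chains that present to cytotoxic T cells and, for HLA-C in particular, to killer immunoglobulin-like receptors. HLA-C (GRCh38 chr6:31268749-31272130, minus strand) was counted 1983 and 1858 times in eGFP Con cells and 1098 and 1314 times in VIRMA FL cells. The replicates of each group differed visibly, but the groups did not overlap. HLA-C fell by 0.69 on the log2 scale (SE 0.0797, adjusted p = 1.46e-09), that is, by 38.0%. HLA-B (chr6:31353872-31357188, minus strand) had 862 and 866 counts in eGFP Con and 587 and 672 counts in VIRMA FL. The controls were nearly equal and the VIRMA-overexpressing replicates were spread more widely below them. Its log2 fold change was -0.48 (SE 0.106, adjusted p = 0.000157), or 28.1% lower. An antisense gene shares 18.0% of the exonic bases of HLA-B and had 0 counts in every library. HLA-B and HLA-C are close relatives, and how reads with more than 1 possible origin were counted is not given in the sources used here. No stretch of 150 bases of the canonical HLA-B, HLA-C or HLA-E transcript was shared with another gene, but shorter reads, or reads of alleles that differ from the reference, can still be misassigned among the class I genes.

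HLA-E and HLA-F are nonclassical chains. HLA-E presents leader peptides of other class I chains and is read by the CD94-NKG2 receptors of natural killer cells. HLA-E (chr6:30489467-30494205, plus strand) had 20776 and 20971 counts with eGFP alone against 17549 and 17181 with VIRMA overexpressed. Replicates were almost superposed and the groups were well apart. It fell by 0.29 on the log2 scale (SE 0.0309, adjusted p = 3.22e-10), or by 18.0%, which was the smallest fall among the 7 tested members. HLA-F (chr6:29722775-29738528, plus strand) was counted 9 and 14 times in eGFP Con cells and 6 and 10 times in VIRMA FL cells. The groups overlapped, and without the filter its log2 fold change was -0.57 with an SE of 0.996 (adjusted p = 0.733), so that no difference was detectable at this depth. The antisense gene HLA-F-AS1, which shares 12.3% of the exonic bases of HLA-F, had 4, 10, 5 and 3 counts, and whether the counting used strand is not given in the sources used here.

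The make-up of the heavy chain level differed between these libraries. Shares were taken of the summed RPKM of the 4 heavy chain members, so they are shares of a level per length and not of reads. HLA-E supplied 86.6% and 87.2% in eGFP Con and 90.3% and 88.5% in VIRMA FL, and HLA-C 9.81% and 9.17% against 6.70% and 8.03%. HLA-B supplied 3.55% and 3.56% against 2.98% and 3.42%. The groups did not overlap for any of these shares, but with 2 libraries against 2 the exact permutation test (two-sided) cannot go below p = 0.33, and each of the 3 shares gave that value.

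B2M encodes the light chain that every class I heavy chain needs to fold and reach the surface. B2M (chr15:44711477-44718877, plus strand) had 25681 and 24777 counts in eGFP Con and 19998 and 20015 counts in VIRMA FL. The VIRMA-overexpressing replicates were nearly equal and both lay below the controls. Its log2 fold change was -0.35 (SE 0.0314, adjusted p = 2.49e-12), a level 21.8% lower. Set against the summed RPKM of the 4 heavy chain members, B2M stood at 0.523 and 0.504 in eGFP Con and 0.503 and 0.504 in VIRMA FL. As a ratio of levels per length, its size depends on the length used for B2M. This ratio overlapped between the groups (exact permutation p = 0.67, two-sided).

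TAP1 and TAP2 are the paired subunits of the peptide transporter, and tapasin links it to the waiting heavy chain. TAP1 (chr6:32845209-32853978, minus strand) had 3086 and 3042 counts with eGFP alone against 1865 and 1746 with VIRMA overexpressed. Replicates lay close and the groups were far apart. TAP1 fell by 0.78 on the log2 scale (SE 0.0596, adjusted p = 4.54e-14), or by 41.9%, the largest fall among the 7 tested members, and 6.14% of all tested genes had a lower log2 fold change. The antisense gene PSMB8-AS1 shares 9.96% of the exonic bases of TAP1 and had 34, 47, 29 and 32 counts. TAP2 (chr6:32821833-32838780, minus strand) was counted 1734 and 1805 times in eGFP Con cells and 1581 and 1328 times in VIRMA FL cells. Both VIRMA-overexpressing values were below the controls, replicate 1 only slightly. Its log2 fold change was -0.30 (SE 0.0743, adjusted p = 0.00048), or 19.0% lower, and without VIRMA-overexpressing replicate 2 the value was -0.20 (adjusted p = 0.0367). A gene on the same strand shares 32.3% of the exonic bases of TAP2 and had 0 counts in every library. Whether reads of the shared part were counted was not tested, so the level of TAP2 per length is uncertain.

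The fall was larger for TAP1 than for TAP2 in these libraries. The ratio of TAP1 RPKM to TAP2 RPKM was 2.48 and 2.35 in eGFP Con and 1.65 and 1.84 in VIRMA FL, without overlap (exact permutation p = 0.33, two-sided, the smallest that 2 against 2 allows). Its size depends on the lengths of the gene models. TAPBP (chr6:33299694-33314387, minus strand) had 14254 and 14695 counts in eGFP Con and 11282 and 11816 counts in VIRMA FL. Both groups were tight and apart. TAPBP fell by 0.35 on the log2 scale (SE 0.0350, adjusted p = 7.21e-11), or by 21.3%. The ratio of TAPBP RPKM to TAP1 RPKM was 4.18 and 4.37 in eGFP Con and 5.48 and 6.13 in VIRMA FL (exact permutation p = 0.33).

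NLRC5 encodes the transactivator that binds with other factors at class I promoters. NLRC5 (chr16:56989485-57083531, plus strand) had 116 and 155 counts with eGFP alone against 136 and 127 with VIRMA overexpressed. The VIRMA-overexpressing values lay between the controls. Without the filter its log2 fold change was -0.10 (SE 0.244, adjusted p = 0.819).

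**Figure D2:**
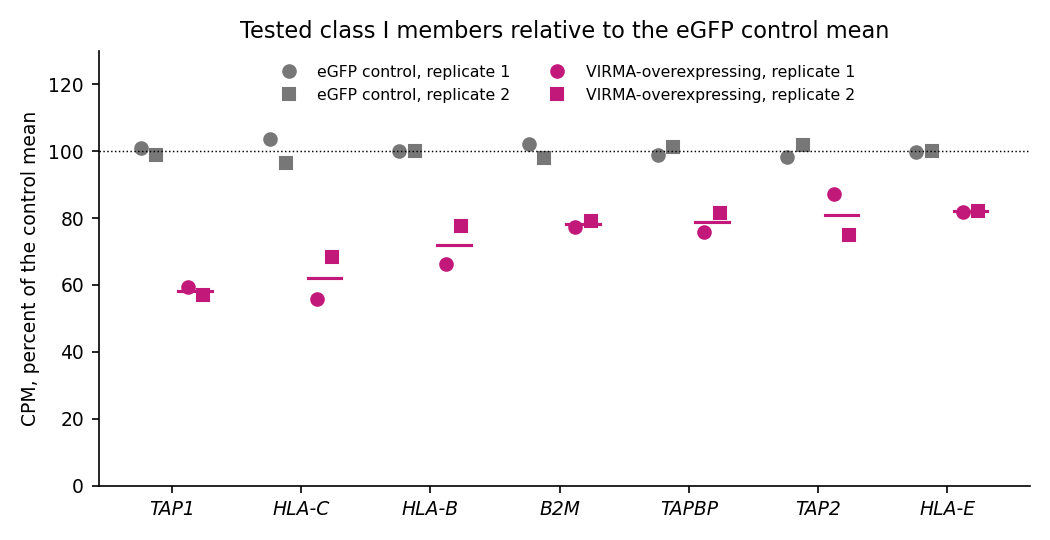
CPM of the 7 tested class I genes in each library as a percent of the mean of the controls (dotted line at 100); grey marks the eGFP controls, magenta the VIRMA-overexpressing libraries, circles replicate 1, squares replicate 2, and the short line the VIRMA-overexpressing mean. Genes are ordered by their fall, from TAP1, 41.9% lower, to HLA-E, 18.0% lower, and the VIRMA-overexpressing replicates are widest apart for HLA-B, HLA-C and TAP2.

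The promoters of these genes carry elements through which interferon and the NLRC5 complex are known to act. RefSeq windows of 250 bases before the start site (GRCh38.p14) were matched for 7 of the 9 members, HLA-B, HLA-C, HLA-F, B2M, TAP1, TAP2 and TAPBP. The core of the interferon-stimulated response element, searched on both strands as GAAANNGAA or GAANNGAAA (one stretch can match both forms), was present in a window of all 7, and of 15% of 27305 genes. Windows of a classical heavy chain, the light chain and both transporter subunits are printed 5′ to 3′ on the strand of the gene, up to the base before the start site, with the core in capitals, because these genes share the element and differ in how far they fell. They are HLA-C at chr6:31272093-31272342 (minus strand), B2M at chr15:44711267-44711516 (plus strand), TAP1 at chr6:32853705-32853954 (minus strand) and TAP2 at chr6:32838740-32838989 (minus strand).
HLA-C: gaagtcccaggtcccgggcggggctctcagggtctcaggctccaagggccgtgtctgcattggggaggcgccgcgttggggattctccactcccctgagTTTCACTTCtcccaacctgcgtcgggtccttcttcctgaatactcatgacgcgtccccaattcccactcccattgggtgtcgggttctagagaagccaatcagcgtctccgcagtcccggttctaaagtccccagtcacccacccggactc
B2M: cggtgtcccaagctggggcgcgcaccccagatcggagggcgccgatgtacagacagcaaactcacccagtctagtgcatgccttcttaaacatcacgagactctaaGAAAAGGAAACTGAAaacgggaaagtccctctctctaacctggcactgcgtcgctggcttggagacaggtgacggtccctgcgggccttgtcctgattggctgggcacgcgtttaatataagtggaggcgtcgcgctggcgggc
TAP1: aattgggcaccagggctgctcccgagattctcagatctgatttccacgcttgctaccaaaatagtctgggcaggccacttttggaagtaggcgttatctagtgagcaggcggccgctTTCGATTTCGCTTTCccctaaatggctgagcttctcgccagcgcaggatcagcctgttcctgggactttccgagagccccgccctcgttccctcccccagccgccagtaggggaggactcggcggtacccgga
TAP2: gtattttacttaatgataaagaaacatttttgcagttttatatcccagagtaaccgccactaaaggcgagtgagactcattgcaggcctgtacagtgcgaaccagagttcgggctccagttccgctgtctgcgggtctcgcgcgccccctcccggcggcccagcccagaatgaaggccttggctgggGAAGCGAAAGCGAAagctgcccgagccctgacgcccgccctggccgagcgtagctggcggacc
In HLA-C the core lay 143 to 151 bases before the start site, in B2M 130 to 144, in TAP1 119 to 133 and in TAP2 50 to 63, and the last 3 held 2 overlapping matches each. The CCAAT box, read by the NF-Y factor, was in windows of 5 of the 7 genes (HLA-B, HLA-C, HLA-F, B2M and TAP1) and in 37% of all. The core of the cyclic AMP response element, TGACG, was in 4 (HLA-B, HLA-C, B2M and TAP2) and in 24.9% of all, and the gamma-activated site TTCNNNGAA was in windows of 8.09% of all genes and, among the members, in the second window of TAP1 (chr6:32852762-32853011), not in the one printed. The NF-kappaB motif was in 5 (HLA-B, HLA-C, B2M, TAP1 and TAPBP) and in 6.28% of all. These are matches of letters, with no measurement of binding. That second RefSeq window of TAP1, further into the gene, held no core of the interferon-stimulated element. TAP1 starts 488 bases from PSMB9, an immunoproteasome gene read in the opposite direction. PSMB9 was counted 150 and 188 times in eGFP Con cells and 82 and 78 times in VIRMA FL cells, without overlap. It did not pass the filter, and without the filter its log2 fold change was -1.13 (adjusted p = 5.9e-05). The ratio of TAP1 RPKM to PSMB9 RPKM was 13.8 and 10.9 in eGFP Con and 15.3 and 15.0 in VIRMA FL (exact permutation p = 0.33, two-sided).

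The factors that act at class I promoters went in both directions, as did all tested genes (35.9% lower, 35.1% higher). Of a list of 16 such factors, 15 were tested, of which 5 were higher, 7 lower and 3 did not pass, with a median log2 fold change of -0.003 against 0.01 over all tested genes. The median turned to 0.08 with library totals alone, where 6 were higher and 4 lower, and the number lower was also 4 without control replicate 2 and without VIRMA-overexpressing replicate 2. RFX5, a subunit of the complex that NLRC5 joins, had 4545 and 4411 counts in eGFP Con and 2660 and 2440 counts in VIRMA FL, a log2 fold change of -0.83 (SE 0.0504, adjusted p = 8.37e-17). CREB1, which binds the cyclic AMP response element, rose by 0.88 on the log2 scale (adjusted p = 2.4e-13). IRF1, an interferon-induced activator of class I genes, had 2182 and 1986 counts against 2849 and 2870, and rose by 0.44 (adjusted p = 8.55e-08). IRF9, the DNA-binding part of the interferon-stimulated complex ISGF3, rose by 0.82 (adjusted p = 1.58e-06).

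Interferon signalling genes and interferon targets were likewise mixed, beside 35.9% lower and 35.1% higher among all tested genes. Of 11 receptors and signalling genes 10 were tested, 3 of them higher and 5 lower, with a median of -0.09. The number lower was 2 with upper-quartile factors, with library totals alone and without VIRMA-overexpressing replicate 2, and 3 without any one of the other libraries. SOCS3, a feedback inhibitor of cytokine signalling, fell by 0.89 on the log2 scale (adjusted p = 2.78e-10), USP18, which restrains the interferon receptor, fell by 0.71 (adjusted p = 1.16e-08), and the kinase JAK1 rose by 0.49 (adjusted p = 7.15e-11). Of 40 interferon-stimulated genes 13 were tested, with 2 higher, 6 lower and 5 that did not pass, and a median of -0.22 (-0.14 without VIRMA-overexpressing replicate 2). With no filter on low counts 39 of the 40 were tested, with 4 higher, 7 lower and a median of -0.05, and with filterByExpr 34 were tested, with a median of -0.12. OAS3, a sensor of viral RNA, had 1113 and 1078 counts against 434 and 396 and fell by 1.42 (adjusted p = 2.4e-14). TRIM21, an antibody receptor in the cytosol, fell by 0.79 (adjusted p = 1.41e-08) and IFI35 by 0.66 (adjusted p = 0.000713).

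Genes that supply the peptides were mostly lower, in short lists, where 35.9% of all tested genes were lower and 35.1% higher. The immunoproteasome replaces the catalytic subunits of the ordinary proteasome and favours peptides that fit class I molecules, and PA28 is an activator of it. Of 5 genes 4 were tested, of which 3 were lower and none higher, and the median was -0.22 on the log2 scale. PSMB8 was counted 1522 and 1501 times in eGFP Con cells and 842 and 866 times in VIRMA FL cells, a fall of 0.84 on the log2 scale (SE 0.0821, adjusted p = 2.67e-11). The PA28 subunits fell less, PSME1 by 0.26 (adjusted p = 5.97e-09) and PSME2 by 0.17 (adjusted p = 1.91e-05), the latter -0.10 with upper-quartile factors and -0.09 with library totals alone. PSMB10 had 1454 and 1369 counts against 1632 and 1376, which overlap, and a log2 fold change of 0.07 (adjusted p = 0.427). The 3 constitutive catalytic subunits that the immunoproteasome subunits replace were all lower, PSMB5 with a log2 fold change of -0.66, PSMB6 of -0.50 and PSMB7 of -0.47. PSMB8 fell by more than each of these, while PSMB10 was not called lower. Of 6 cytosolic peptidases, which trim or destroy peptides, 5 were tested. TPP2 rose by 0.57 on the log2 scale (adjusted p = 2.4e-12), BLMH fell by 0.40 (adjusted p = 1.69e-10), LAP3 fell by 0.36 (adjusted p = 9.34e-05), and the list had a median of -0.23 with 1 higher, 3 lower and 1 that did not pass.

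The general chaperones that help class I molecules fold went the other way. Of 8 partners in the endoplasmic reticulum 7 were tested, with 5 higher, 1 lower and 1 that did not pass. Their median log2 fold change was 0.32, and among all tested genes 35.1% were higher and 35.9% lower. CALR, the lectin chaperone of the loading complex, had 78336 and 78070 counts in eGFP Con and 117757 and 115207 counts in VIRMA FL, a rise of 0.55 on the log2 scale (SE 0.0254, adjusted p = 2.65e-20). PDIA3, the thiol oxidoreductase bound to tapasin, rose by 0.44 (adjusted p = 9.81e-17). BCAP31, a cargo receptor for class I molecules on their way out of the endoplasmic reticulum, had 29472 and 29555 counts against 20975 and 21361 and fell by 0.50 (adjusted p = 1.36e-16). TAPBPL, the tapasin relative that edits peptides, had 366 and 408 counts against 372 and 333, a log2 fold change of -0.16 (adjusted p = 0.349). ERAP1, the peptidase that trims peptides to length in the endoplasmic reticulum, had 798 and 701 counts against 1029 and 792, which overlapped, with a log2 fold change of 0.26 (adjusted p = 0.032). It did not pass with DESeq2 or with any of 3 other filters, and it rested on single libraries: the value was 0.08 (adjusted p = 0.625) without VIRMA-overexpressing replicate 1, 0.42 (adjusted p = 0.00136) without VIRMA-overexpressing replicate 2 and 0.16 (adjusted p = 0.218) without control replicate 2.

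**Figure D3:**
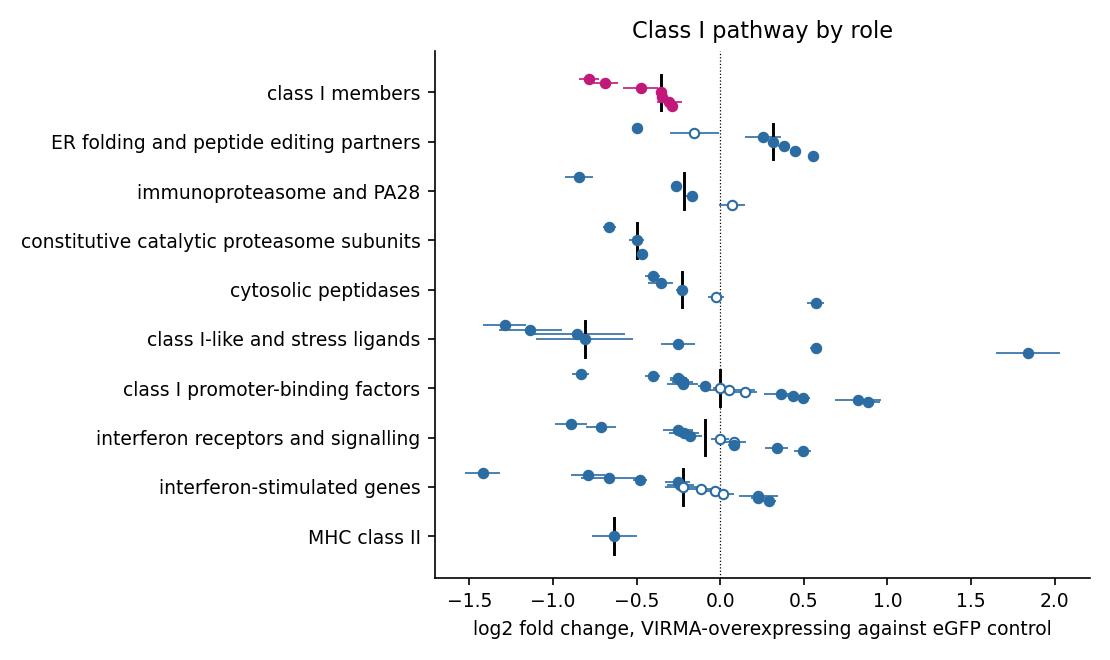
Log2 fold change (VIRMA-overexpressing against eGFP control) of each tested gene of the class I pathway lists, with its SE as a bar; filled points passed an adjusted p of 0.05, open points did not, and the black line is the median of the list. The 7 class I members (magenta) all lie left of 0, around a median of -0.35, whereas the endoplasmic reticulum partners lie mostly to the right, around 0.32.

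Relatives of class I molecules that engage other receptors covered a wider range of log2 fold changes, from -1.29 to 1.84. Of 19 class I-like genes and stress ligands 7 were tested, with 2 higher, 5 lower and a median log2 fold change of -0.81. The shares over all tested genes were 35.1% higher and 35.9% lower. With no filter all 19 were tested, with 2 higher, 6 lower and a median of -0.33, and with filterByExpr the median of 16 was -0.39. Among the 7, the number lower was 3 without VIRMA-overexpressing replicate 1. ULBP1, a ligand of the activating receptor NKG2D, had 100 and 176 counts with eGFP alone against 454 and 548 with VIRMA overexpressed, a rise of 1.84 on the log2 scale (SE 0.191, adjusted p = 1.2e-10). RAET1E, another ligand of that receptor, had 306 and 329 counts against 132 and 161 and fell by 1.13 (adjusted p = 2.14e-06), so that ligands of 1 receptor moved in opposite directions. PROCR, a class I-like receptor for protein C, had 767 and 660 counts against 297 and 295 and fell by 1.29 (adjusted p = 7.69e-11). HLA-G, a nonclassical chain, was counted 15 and 16 times in eGFP Con cells and 4 and 6 times in VIRMA FL cells and did not pass the filter. Its groups did not overlap, and without the filter its adjusted p was 0.252.

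Of the 9 members 7 lie on chromosome 6, in the MHC region, with B2M and NLRC5 elsewhere. Between HLA-F and TAPBP (chr6:29722775-33314387, 3.59 Mb) the table lists 286 other genes, of which 79 were tested. Among these neighbours 25 were higher, 34 were lower (43.0%, against 35.9% of all tested genes) and 20 did not pass, with a median log2 fold change of -0.05. With library totals alone 33 were higher and 30 lower, with a median of 0.04, and without VIRMA-overexpressing replicate 2 the median was 0.02. The 6 tested members on this chromosome were thus among neighbours that went in both directions, and B2M, on chromosome 15, was lower by a like amount. Past 2-fold, 2 neighbours were higher and 5 lower, with the lowest log2 fold changes at HSPA1A (-1.61), TCF19 (-1.56) and NRM (-1.35). HSPA1A encodes an inducible heat shock protein and has a near-identical neighbour in HSPA1B, so its own count is uncertain.

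**Figure D4:**
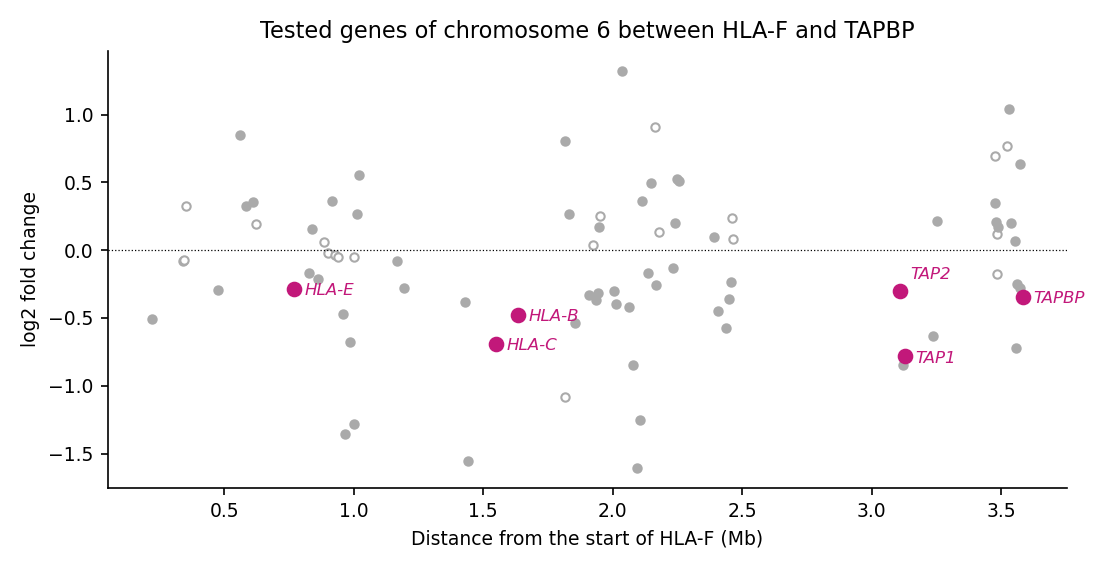
Log2 fold change of the tested genes between HLA-F and TAPBP against distance from the start of HLA-F in Mb; magenta points are the 6 tested class I members on this chromosome, grey points are the 79 tested neighbours, and filled points passed an adjusted p of 0.05. The members lie between -0.29 and -0.78, while the neighbours extend from -1.61 to 1.32 on both sides of 0.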

How the data were processed

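SKBR3 libraries (TruSeq Stranded, poly-A) were trimmed by the authors with Trimmomatic 0.39, aligned to hg38 with STAR 2.5.2a and counted per gene with featureCounts, and the deposited values are whole raw counts. All 9 members overlapped the GENCODE v44 gene of the same symbol. The VIRMA columns of the table bear a code in place of that name and were assigned to the remaining group. Counts were fitted with edgeR 4.0.16 (quasi-likelihood, TMM factors, group alone, RPKM above 1 in at least 2 of 4 libraries, Benjamini-Hochberg over 12205 genes). The CPM and RPKM reported used TMM-scaled totals of the tested genes. The RPKM of the filter used the total counts of each library, without TMM factors. Thresholds were an adjusted p of 0.05 and, for 2-fold counts, a log2 fold change past 1. The fit was run on simulated data, with 95.5% of the genes changed by 0.5 on the log2 scale recovered and 97% of those changed by 1. The simulation left 12005 of 12205 genes unchanged and gave every gene the same coefficient of variation. It therefore does not give the error rate of data in which 71% of genes passed. The members, gene lists and tests were chosen with earlier results of these data known. Of each list, the genes named are those with the largest changes plus a few set ones, of which 1 is not reported here. Ratios used exact permutation tests. The replicates are described as biological duplicates, and p-values measure the spread between them alone. The same replicate number does not pair libraries (correlation of deviations 0.0346). Alternatives were DESeq2 1.42.0, limma-voom 3.58.1, 3 other scalings, 3 other filters, a replicate block and leaving out each library.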

Additional observations from a re-analysis of the deposited data

How the results depend on the processing

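All 7 tested members were lower, at an adjusted p of 0.05, under each of 13 alternatives (91 of 91 values), with the log2 fold change of TAP1 between -0.83 and -0.70, of HLA-C between -0.84 and -0.55, of HLA-B between -0.60 and -0.37, and of HLA-E between -0.33 and -0.20. The median over the members was -0.28 with upper-quartile factors, -0.27 with library totals alone and -0.40 with edgeR's filterByExpr. Those 2 scalings moved the median of all genes by 0.07 and 0.09. Past 2-fold, 552 genes were higher and 358 lower. Where a looser filter let more genes be tested, they came to 1044 and 808 (filterByExpr), 1137 and 820 (unfiltered) and 930 and 689 (10 or more counts in all 4 libraries). With a replicate block 7 members were lower, 0 were higher, and the members' median was -0.35. The labels tie no batch to the numbers, and the block changed no call among the members. Of 545 values for 42 other genes, 535 kept their call and direction. The log2 fold change of PSMB10 ranged from -0.0396 without VIRMA-overexpressing replicate 1, where it reversed, to 0.1718 without VIRMA-overexpressing replicate 2, and the log2 ratio of B2M to HLA-E per length in the controls, -0.76, reversed to 1.71 with canonical transcript lengths. The cause of the changes not given here was not tested. At 2 libraries per group, leaving out a library leaves 1, which was assumed to vary like the other group. Depth limits HLA-F and NLRC5.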

Other observations

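MHC class II genes, which present peptides from outside the cell and are largely restricted to specialised immune cells, were scarce. Of 12 listed genes HLA-DMA, which loads peptides onto class II molecules, was the 1 that passed the filter. It had 544 and 533 counts in eGFP Con and 371 and 333 counts in VIRMA FL, a log2 fold change of -0.63 (adjusted p = 8.48e-05). CIITA, the class II transactivator, had 157 and 126 counts with eGFP alone against 218 and 212 with VIRMA overexpressed, without overlap (adjusted p = 0.0352 without the filter). CD74, the invariant chain, had 48 and 56 counts against 48 and 29.

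The genes whose pattern over the 4 libraries was closest to that of B2M, by Euclidean distance of centred log2 CPM, were NAV1 (distance 0.00423), C6orf106 (0.0133) and FIS1 (0.0135), with log2 fold changes of -0.36, -0.34 and -0.36. With 4 libraries in 2 groups such closeness is a description.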
